A study of Mus musculus with 8 samples.

Results

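Cspg4 and the other proteoglycans of the cell surface were followed in mouse embryonic fibroblasts (MEFs) without Lats2, a kinase of the Hippo pathway. The group holds 10 genes: Cspg4, the syndecans Sdc1, Sdc2, Sdc3 and Sdc4, and the glypicans Gpc1, Gpc2, Gpc3, Gpc4 and Gpc6. Its members were all gene probes that the array files name by these symbols, 18 of 41174 probes. Cspg4 had been picked for its low ratio in this same contrast, so the values of the members in Lats2-/- against Lats2+/+ cells are given as a description, without p-values.

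Proteoglycans are core proteins that carry long sulphated sugar chains. CSPG4, also called NG2, is a transmembrane protein with chondroitin sulphate that is widely used as a marker of pericytes and of oligodendrocyte progenitors. Syndecans span the membrane and glypicans are held to it by a lipid anchor, and both carry heparan sulphate, with which they bind growth factors, morphogens and matrix proteins at the surface of most cells, fibroblasts included.

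The cells came from C57BL/6J embryos, were grown untreated in DMEM with fetal bovine serum, and carried either the genotype Lats2-/- or Lats2+/+. Litters 112, 116 and 121 each gave 1 RNA extract per genotype, so there were 6 extracts, each under its own clone name. How Lats2 was inactivated is not given in the sources used here. Both extracts of a litter were hybridised to the same two-colour Agilent arrays with the dyes swapped, for 8 arrays in all: 4 held litter 121, and the other litters had 2 each. A log2 ratio below always means Lats2-/- over Lats2+/+, and the replicate is the litter (n = 3). A log2 signal is the brightness of 1 probe in 1 extract on a log2 scale, averaged over its arrays. Signals of different probes are not compared, since probes bind with different strength.

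Probes that stood well above background in 2 or more extracts of a genotype were kept, which left 22642 probes of 14727 genes. For each gene the kept probe with the highest mean signal stands for the gene. Between 52.9% and 61.3% of probes were well above background per array and genotype. Over all genes, 0 of 14727 (0%) passed an adjusted p of 0.05 in limma, with 611 higher (4.15%) and 508 lower (3.45%) at an unadjusted p under 0.05. Of the 4 Lats2 probes, 1 was lower in every litter (-1.33, -1.05 and -0.56), while the other 3 were lower in litters 112 and 116 and higher in litter 121, by 0.80 to 1.17. Which stretch of the gene is lost is not given in the sources used here, so probes outside it would check nothing. The study examined the knockout in these MEFs by western blotting. Litter 121 lies on a slide of its own, so litter and slide cannot be told apart there. All 10 fibroblast markers had a kept probe, and 8 to 10 of them were well above background in each extract. Most of their ratios had opposite signs in litters 116 and 121, with 6 of 10 at least 2-fold higher and 2 at least 2-fold lower in litter 116 (5.57% and 3.69% of all genes), and 0 higher and 7 lower in litter 121 (4.05% and 3.23% of all genes). By litter, the mean log2 signal of the list was 12.79, 14.37 and 11.39 in Lats2-/- cells and 12.38, 12.48 and 13.60 in Lats2+/+ cells.

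The sequences before the genes show what their starts share. Of the 10 members, 7 had an entry in the RefSeq promoter table (build GRCm38.p6; 250 bases before to 50 after the start): Cspg4, Sdc1, Sdc3, Sdc4, Gpc2, Gpc3 and Gpc4. A set of 4 motifs was searched on both strands, and none of them overlapped another in these promoters. GGGCGG, the core of a GC box, was in 7 of 7 member promoters and in 35.7% of all 32851 promoters. The member promoters were 60% to 77.7% G and C, all above the median of 52.7% over all promoters. GGAATG, bound by TEAD factors, the DNA-binding partners of the Hippo coactivators YAP and TAZ, was in 1 of 7 (Gpc4) and in 14.7% of all. TGANTCA, an AP-1 site, was in 0 of 7 (7.81% of all), and TATAAA, the TATA box, in 0 of 7 (13.6% of all). The promoter of Cspg4, with the largest difference here, and that of Gpc4, the single one with the TEAD letters, are shown with the matched letters in capitals. In Cspg4 (chr9:56864854-56865153, plus strand) these are 2 GC boxes at 120 and 85 bases before the start, read on the other strand. In Gpc4 (chrX:52164874-52165173, minus strand) they are a GC box and then the TEAD letters, both read on the other strand.
Cspg4: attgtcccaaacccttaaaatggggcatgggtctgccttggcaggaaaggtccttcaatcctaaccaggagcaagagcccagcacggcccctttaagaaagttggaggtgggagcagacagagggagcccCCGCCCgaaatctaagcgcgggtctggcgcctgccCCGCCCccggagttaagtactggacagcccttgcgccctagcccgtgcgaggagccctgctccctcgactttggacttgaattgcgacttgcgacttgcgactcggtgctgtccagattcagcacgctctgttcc
Gpc4: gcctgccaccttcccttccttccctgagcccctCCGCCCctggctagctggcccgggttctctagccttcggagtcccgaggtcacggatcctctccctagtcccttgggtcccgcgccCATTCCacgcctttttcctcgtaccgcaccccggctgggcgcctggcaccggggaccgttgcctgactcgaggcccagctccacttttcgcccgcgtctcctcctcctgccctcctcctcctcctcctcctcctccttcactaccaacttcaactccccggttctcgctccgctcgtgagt
These matches describe letters within 300 bases, and no binding was measured in these cells.

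Cspg4 was lower in Lats2-/- cells in every litter and on 8 of 8 arrays. Its brightest probe (A_51_P160824, chromosome 9, 56696957 to 56697016 in mm8, plus strand) had log2 signals, in the order of litters 112, 116 and 121 used throughout, of 9.32, 7.20 and 7.04 without Lats2 and of 11.42, 11.34 and 10.98 with it. Every Lats2-/- extract therefore lay below every Lats2+/+ extract. The log2 ratios were -2.10, -4.14 and -3.94, which leaves 23.3%, 5.68% and 6.52% of the littermate's level, with a mean of -3.39 ± 1.12 (SD, n = 3 litters), 10.5-fold lower. By the brightest probe the loss was smallest in litter 112, where the signal stayed 2 log2 units or more above that of the other Lats2-/- extracts. In such bulk extracts, fewer cells with the transcript and less transcript per cell cannot be told apart.

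The level of Cspg4 in wild-type cells hardly differed between litters. The 3 Lats2+/+ extracts spanned 0.44 on the log2 scale, against a median span of 0.50 over all genes, while the 3 Lats2-/- extracts spanned 2.28. Arrays of the same litter differed by at most 0.34 in the ratio, against 2.04 between litters. The second probe (A_52_P278064, 56697659 to 56697718), 702 bases further along, gave -2.12, -4.78 and -4.59. The third (A_52_P539873, 56689538 to 56689597) lies 7419 bases before the first and was dim, with Lats2-/- signals of 6.54, 6.31 and 6.57 against 7.71, 7.13 and 7.38. It was lower on 8 of 8 arrays too, by 1.18 in litter 112, by 0.81 in litter 121 (2 of 4 Lats2-/- arrays above background), and by at least 1.76-fold in litter 116, where the Lats2-/- signal did not clear background. Litter 112 was thus not the mildest by this dim probe. The exon that each probe lies in was not determined, since no mm8 annotation was used here.

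Counted from the lowest ratio of the 14727 genes, Cspg4 was 30th in litter 112, 11th in litter 116 and 29th in litter 121, and by its mean it was the lowest. Of the 9 members with a kept probe, 1 was at least 2-fold lower in each of the 3 litters (Cspg4), as were 4 genes of all (0.0272%), and 0 were at least 2-fold higher in each (0.278% of all). All 3 Lats2-/- extracts lay below all 3 Lats2+/+ extracts for 1 member, again Cspg4 (2.98% of all genes), and above them for 0 (3.25%). Since Cspg4 was chosen on this contrast, these counts describe it and test nothing.

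**Figure D1:**
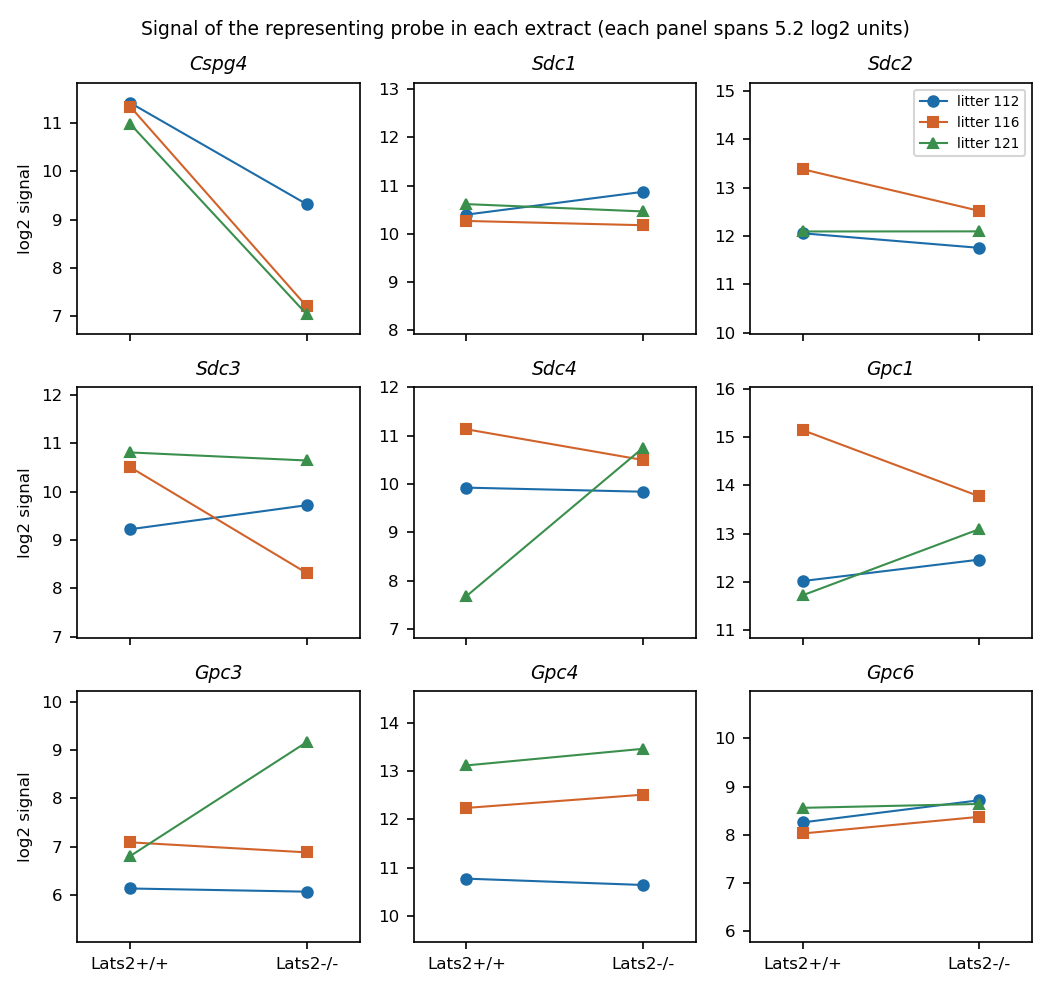
Log2 signal of the representing probe of 9 genes in the Lats2+/+ (left) and Lats2-/- (right) extract of each litter, with a line joining the 2 extracts of a litter. Each panel spans the same number of log2 units around its own centre, so slopes can be compared and heights cannot. Cspg4 goes from between 10.98 and 11.42 down to between 7.04 and 9.32, and no other panel has all 3 lines steeply on the same side.

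The syndecans did not share this pattern. Their median log2 ratios by litter were 0.19, -0.75 and -0.07, which is 2.29, 3.39 and 3.87 above that of Cspg4. No syndecan had the same sign in all 3 litters by its representing probe (30.0% of all genes did), and 2 of the 4 differed at least 2-fold in some litter (15.8% of all genes).

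Sdc1, the syndecan best known from epithelia and plasma cells, had the smallest SD of the 4 by their representing probes. Its log2 signals were 10.87, 10.18 and 10.46 in the Lats2-/- extracts and 10.40, 10.27 and 10.61 in the Lats2+/+ extracts. The 2 genotypes overlapped, and the ratios of 0.47, -0.09 and -0.15 gave a mean of 0.08 ± 0.34 (SD, n = 3 litters).

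Sdc2, the main syndecan of mesenchymal cells, had log2 signals of 11.75, 12.52 and 12.10 in Lats2-/- cells and 12.06, 13.38 and 12.09 in Lats2+/+ cells. The wild-type extract of litter 116 stood above the other 5 extracts. Ratios were -0.30, -0.86 and 0.00, with a mean of -0.39 ± 0.44, and a second probe 1910 bases away was lower on 8 of 8 arrays, by 0.19, 0.61 and 0.26. Sdc2 was thus below 2-fold in each litter by both of its probes.

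Sdc3, a syndecan of nerve and muscle precursors, was low in 1 extract by its brightest probe. With this probe (A_52_P282741, chromosome 4, 130098176 to 130098235), the Lats2-/- extracts had 9.72, 8.32 and 10.65 and the Lats2+/+ extracts 9.22, 10.51 and 10.81. The ratio of -2.19 in litter 116 stood against 0.50 in litter 112 and -0.17 in litter 121, and the mean of -0.62 was smaller than its SD of 1.40. The second probe did not show that size in litter 116. This probe, 3115 bases upstream (A_52_P485142), gave 0.10, -0.44 and -0.19. A dim one for which the files give no position (A_51_P347494) had -0.08 in litter 121 and was at least 1.18-fold lower in litter 116, where the Lats2-/- extract did not clear background, and in litter 112 neither extract did. The brightest probe and the second differed by 1.75 in litter 116. Among the litter values of 11131 pairs of kept probes with the same gene name, whose median difference was 0.13, 0.548% were at least that far apart.

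Sdc4, a syndecan of focal adhesions, differed most in litter 121. The probe A_52_P93467 (chromosome 2, 164116916 to 164116975, minus strand) had Lats2-/- signals of 9.84, 10.50 and 10.75 and Lats2+/+ signals of 9.93, 11.13 and 7.68. By this probe the wild-type extract of litter 121 was more than 2 log2 units under the others, and the ratio there was 3.07 (8.39-fold higher in Lats2-/- cells) beside -0.08 and -0.64. The 4 arrays of litter 121 gave 2.96 to 3.20. The second probe, 1095 bases away, was also higher in that litter alone, with -0.27, -0.54 and 1.21. By this one the wild-type extract of litter 121 did not stand apart, with 9.05 beside 9.26 and 10.65 in litters 112 and 116, and 8.99, 10.11 and 10.26 without Lats2. The probes differed by 1.86 in litter 121, as far as 0.479% of pair values. The mean of the first, 0.78 ± 2.0 (SD, n = 3 litters), turned to -0.36 without litter 121.

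**Figure D2:**
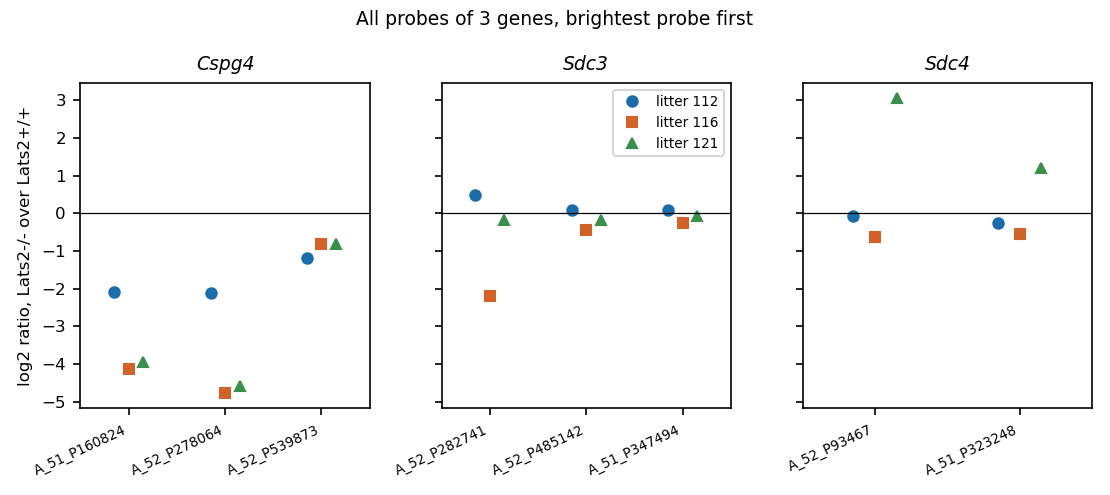
Log2 ratio per litter (vertical axis) of every probe of Cspg4, Sdc3 and Sdc4, the brightest probe first, with 1 point per litter. Both bright Cspg4 probes are far below 0 in all litters and the dim one is nearer to 0, with its litter 116 point only a bound, while Sdc3 in litter 116 is at -2.19 with its brightest probe and at -0.44 with the second, the third point there being only a bound, and the high value for Sdc4 in litter 121 with both, at 3.07 and 1.21.

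The glypicans had medians of 0.44 in litter 112, over the 3 that were measured there, and of 0.03 and 0.86 over 4 in litters 116 and 121. These lie 2.54, 4.17 and 4.80 above Cspg4. By their representing probes 2 of the 4 kept glypicans were at least 2-fold different in some litter (15.8% of all genes), and 1 had the same sign in all (30.0% of all genes).

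Gpc1, the glypican of many adult tissues, ran in opposite directions in litters 116 and 121. Its probe (A_51_P276943, chromosome 1, 94690540 to 94690599) had Lats2-/- signals of 12.46, 13.78 and 13.09 and Lats2+/+ signals of 12.02, 15.15 and 11.72. The wild-type extracts spanned 3.42, more than the 1.31 of the Lats2-/- extracts, and only 1.11% of genes spanned as much. The ratios of 0.44, -1.37 and 1.37 gave a mean of 0.15 ± 1.39, which changed sign without litter 112 or without litter 121.

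Gpc3, a glypican that regulates body size and binds Hedgehog and Wnt proteins, was high in 1 extract. Its probe (A_52_P23225, chromosome X, 48517190 to 48517249) had 6.07, 6.88 and 9.17 in Lats2-/- cells and 6.14, 7.09 and 6.81 in Lats2+/+ cells. The Lats2-/- extract of litter 121 was the bright one, with ratios of 2.33 to 2.43 on its 4 arrays, and in litter 112 neither extract was well above background. The ratios were -0.21 in litter 116 and 2.36 in litter 121, and the mean of 0.70 ± 1.44, which includes the unmeasured litter, turned to -0.14 without litter 121.

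Gpc4, which is placed next to Gpc3 on the X chromosome, differed more between litters than between the genotypes of a litter by its brighter probe. The probe A_51_P252725 had 10.64, 12.51 and 13.46 in Lats2-/- cells and 10.77, 12.24 and 13.12 in Lats2+/+ cells. Both extracts of litter 112 were lowest and both of litter 121 highest, with a wild-type span of 2.35, while the ratios were -0.13, 0.27 and 0.34 (mean 0.16 ± 0.26, SD, n = 3 litters). Its second probe gave 0.00, -0.40 and 0.30. Arrays of a single litter differed by up to 0.52 for the first probe, more than the 0.47 between litters.

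Gpc6, with log2 signals of 8.72, 8.37 and 8.64 in Lats2-/- cells and 8.26, 8.03 and 8.56 in Lats2+/+ cells, was the one glypican with the same sign throughout. Ratios were 0.46, 0.34 and 0.08, with a mean of 0.29 ± 0.19, and 0.64, 0.13 and 0.08 by a probe 11109 bases away. The extracts of the genotypes overlapped. Gpc2, a glypican of developing neurons, had no kept probe: it was well above background in both extracts of litter 121 alone, with a ratio of 0.01 there.

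**Figure D3:**
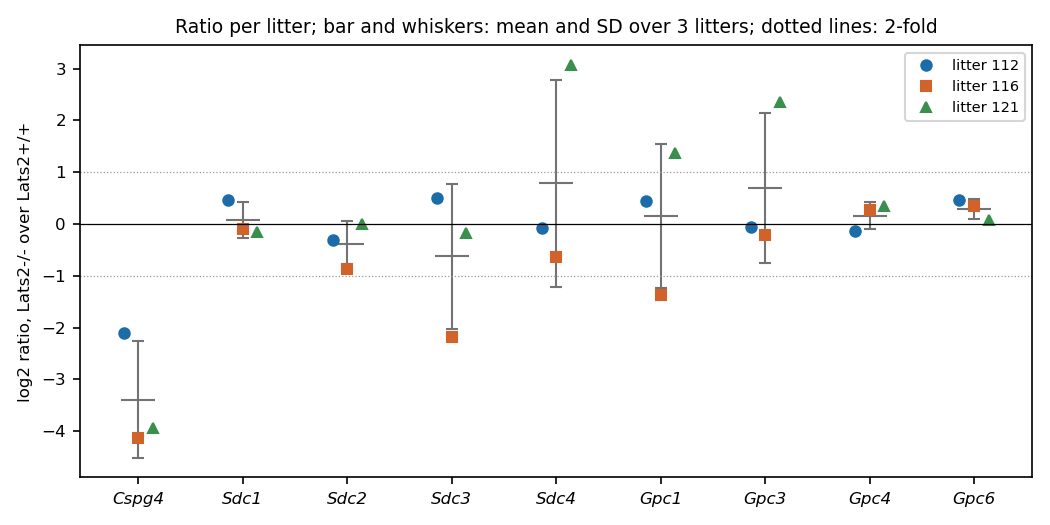
Log2 ratio of Lats2-/- over Lats2+/+ for the representing probe of 9 genes, with 1 point per litter, and the mean with its SD over 3 litters as a bar with whiskers. Dotted lines mark 2-fold. All 3 points of Cspg4 are below -2, and the whiskers of all other genes but Gpc6 span 0.

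Set beside each other, the litters disagreed on the other members. Apart from Cspg4, 0 of the 7 members measured in litter 112 differed at least 2-fold, where 3.16% of all genes were higher by that much and 1.47% lower (Gpc3 was not above background there). Of 8 members, 2 were lower in litter 116 (Sdc3 and Gpc1, with 3.69% of all genes), and 3 were higher in litter 121 (Sdc4, Gpc1 and Gpc3, with 4.05% of all genes). With Cspg4 these are 5 of 9 members at least 2-fold different in at least 1 litter, against 15.8% of all genes. Cspg4 was chosen on this contrast, and Sdc3 passed by its brightest probe alone (-0.44 by the second in litter 116), so this count tests nothing. The next lowest member lay 1.80 above Cspg4 in litter 112 (Sdc2), 1.95 above it in litter 116 and 3.77 in litter 121 (both Sdc3). A single sign in all litters was found for 2 of 9 members, Cspg4 and Gpc6, and for 30.0% of all genes. The fibroblast markers also differed between litters, and not all in the same way. Dcn, the small matrix proteoglycan decorin, had ratios of 3.26, 6.22 and -1.94, Col3a1 of 0.13, 3.70 and -3.42, Thy1 of -0.38, 2.05 and -3.66, and Pdgfra, a receptor for platelet-derived growth factor, of 0.90, 0.13 and -4.96, the last with 2 of 4 arrays above background in Lats2-/- cells. S100a4 had 0.15, -0.97 and -3.61 and Vim had 0.08, -1.19 and -0.07. Fap was at least 2.17-fold lower in litter 116 and at least 3.31-fold lower in litter 121. These genes of the list were named after their values were seen. Their part in the ratios of the members was not tested.

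Markers of the cell types for which CSPG4 is known were read in the same extracts. Of 13 mural cell markers, 5 had a kept probe and 0 of these passed at an unadjusted p under 0.05. Their median was 0.88, against 0.01 over all genes, with litter medians of 0.23, 1.85 and 0.13. The median of litter 116 is the ratio of Mcam, which is only a bound (at least 3.60-fold higher), since its wild-type extract did not clear background. Mcam had -1.30 in litter 112 and 2.35 in litter 121. It was the 1 marker of the 5 at least 2-fold lower in litter 112 (1.47% of all genes). At least 2-fold higher were 3 in litter 116 and 1, Mcam, in litter 121 (5.57% and 4.05% of all genes). Pdgfrb, the receptor that pericytes depend on, had 0.87, 0.87 and -0.14 (mean 0.54 ± 0.59), Notch3 had 0.38 ± 0.35, the lowest mean of the list, and Acta2, smooth muscle actin, had the highest with 1.07 ± 1.87, at -0.43, 3.16 and 0.49. The mean log2 signal of the list was 10.65 to 12.37 in Lats2-/- extracts and 9.45 to 11.83 in Lats2+/+ extracts. Rgs5, Kcnj8 and Abcc9, defining markers of pericytes, had no kept probe.

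Of 8 oligodendrocyte progenitor markers 5 were kept, with a median of 0.00, mean log2 signals of 8.80 to 10.35 in Lats2-/- and 9.71 to 10.24 in Lats2+/+ extracts, and 0 at an unadjusted p under 0.05. Olig1, Olig2 and Gpr17 had no kept probe. The lowest mean was that of Pdgfra (-1.31 ± 3.18) and the highest that of Cnp, a myelin enzyme (0.49 ± 0.60). For other cell types, 1 of 7 epithelial markers was kept, the keratin Krt19, with 2.42 and 1.83 in litters 112 and 121 and at least 1.20-fold higher in litter 116, where its wild-type extract did not clear background (mean 1.54 ± 1.05, limma p 0.0284, adjusted p 0.711). The mean includes that litter and is not exact in size, and it was 3.26 with the processed signals. Its log2 signal was 6.40 to 8.77 in Lats2-/- and 6.02 to 6.94 in Lats2+/+ extracts, and Epcam and Cdh1 had no kept probe. Of the endothelial markers 1 of 7 was kept, Tek, with 0.06 ± 0.09 and signals of 6.38 to 6.68 and 6.36 to 6.52, and Pecam1 and Cdh5 were not. Macrophage markers had 4 of 8 kept, with mean signals of 7.20 to 7.83 and 7.22 to 7.79. Among these Cd14, a receptor for bacterial lipopolysaccharide, had -0.60, -1.64 and -0.74 (mean -0.99 ± 0.57, limma p 0.0192, adjusted p 0.711), Lyz2 had the highest mean with 1.47 ± 1.73, and Ptprc and Adgre1 were not kept. The part of these cells in the members' ratios was not tested.

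Other proteoglycans, and genes that build, modify and bind the chains, were measured as 7 lists with 78 kept genes. Of these, 4 were higher and 2 lower at an unadjusted p under 0.05, which is 5.13% and 2.56% of them beside 4.15% and 3.45% of all genes, and 0 passed the adjusted threshold. Of these 6, Dse kept an unadjusted p under 0.05 in 5 of 15 settings, Gipc1 in 8, Extl3 in 9, App and Tiam1 in 12 and Col18a1 in 14. The list medians lay between -0.06 and 0.09, with single genes on either side of 0 in each.

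Among other membrane proteoglycans (10 of 14 kept, median 0.07), App, the amyloid precursor protein, which can carry a chondroitin sulphate chain, had 1.07, 1.56 and 0.50 (mean 1.04 ± 0.53, limma p 0.0138, adjusted p 0.711). Tmeff2 had the lowest mean with -1.52 ± 1.28 (limma p 0.0513). Of 13 secreted and basement membrane proteoglycans, 4 were kept, with a median of 0.02. Col18a1, the collagen core of a basement membrane proteoglycan and source of endostatin, had -0.79, -1.60 and -2.09 (mean -1.49 ± 0.66, limma p 0.00769, adjusted p 0.711). Vcan, versican, had the highest mean, 1.41 ± 1.87, from 3.56 in litter 116 beside 0.23 and 0.43.

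Of the enzymes that make the linkage region and polymerise the chains, 11 of 12 were kept, with a median of 0.06. Extl3, which starts heparan sulphate chains, had 0.17, 0.86 and 0.95 (mean 0.66 ± 0.43, limma p 0.0329, adjusted p 0.711), and Pxylp1, a phosphatase that acts on the linkage xylose (Acpl2 in the files), had the lowest mean, -0.69 ± 0.56. Heparan sulphate modification had 10 of 20 kept, a median of 0.09 and 0 at an unadjusted p under 0.05. There Sulf1, an extracellular sulphatase, had 3.77, 1.23 and 0.43 (mean 1.81 ± 1.74, limma p 0.0717), the highest of the list, and the epimerase Glce the lowest (-0.59 ± 0.75).

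Chondroitin and dermatan sulphate synthesis, which supplies the chain that CSPG4 carries, had 14 of 16 kept and a median of 0.06. Dse, the epimerase that makes dermatan sulphate, had 0.41, 0.22 and 0.27 (mean 0.30 ± 0.10, limma p 0.0454, adjusted p 0.711). The sulphotransferases Chst7 (-1.74, -2.58 and 0.85, mean -1.16 ± 1.79) and Chst11 (mean 0.78 ± 1.05) were the lowest and the highest. In the supply of sulphate and nucleotide sugars, 10 of 11 were kept with a median of -0.06, from -0.32 for Uxs1, which makes UDP-xylose, to 0.29 for the sulphate transporter Slc26a2, and 0 had an unadjusted p under 0.05.

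Among ligands, adaptors and enzymes that release the ectodomains, 19 of 20 were kept, with a median of 0.07. Gipc1, a PDZ protein that binds syndecan tails, had 0.31, 0.59 and 0.27 (mean 0.39 ± 0.17, limma p 0.0334), and Tiam1, an exchange factor for Rac, had -0.78, -1.68 and -0.36 (mean -0.94 ± 0.67, limma p 0.0356), both with an adjusted p of 0.711. Grip1, a PDZ protein that binds CSPG4, had the highest mean (0.83 ± 1.02), with 1.98 in litter 121, at least 1.36-fold higher in litter 112 and neither extract above background in litter 116. Col6a3, a chain of collagen VI, which is a ligand of CSPG4, had the lowest mean, -1.57 ± 3.99, with ratios of -0.62, 1.86 and -5.94. Its litters differed by more than those of any member.

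**Figure D4:**
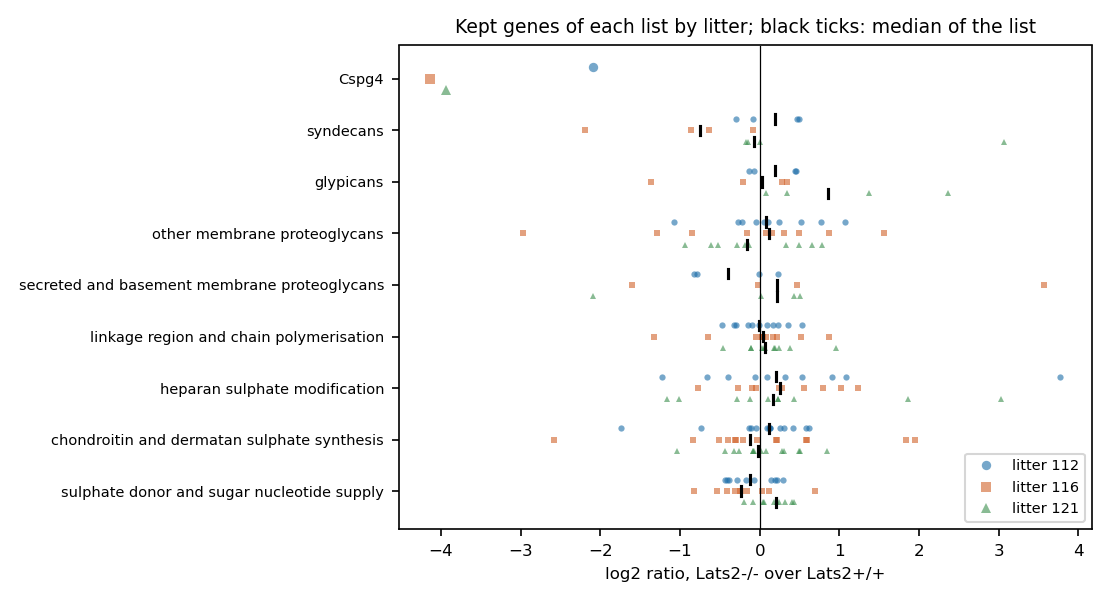
Log2 ratio of Lats2-/- over Lats2+/+ (horizontal axis) for Cspg4 and the kept genes of 8 lists (rows; the list of ligands, adaptors and release enzymes is not drawn), with 1 point per gene and litter and a black tick at the median of the list in that litter. The points of Cspg4 are at -2.10, -4.14 and -3.94, while the litter medians of the drawn lists stay between -0.75 and 0.86.

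Over the 6 extracts, the log2 signal of Cspg4 had a Pearson's r of 0.30 with Sdc3, 0.22 with Sdc2 and 0.12 with Sdc1, and of -0.14 with Gpc1, -0.36 with Sdc4, -0.40 with Gpc4, -0.50 with Gpc6 and -0.58 with Gpc3. The member nearest to it, Sdc3, ranked 4331st of 14726 genes by this measure. The 5 genes with the most similar course were Wdr46 (r of 0.995), Ifrd2 (0.990), Bdp1 (0.990), Cct5 (0.989) and Mybbp1a (0.988). Their ratios were smaller by far: Wdr46 had -0.44, -0.66 and -0.64, and Ifrd2 -0.58, -1.11 and -0.84, the mildest again in litter 112. These values are descriptions over 6 points that share litters and arrays in pairs, and the 5 genes are those at the top of a ranking.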

How the data were processed

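RNA of 3 Lats2-/- and 3 Lats2+/+ MEF extracts was compared on 8 two-colour Agilent whole mouse genome arrays. The members and the gene lists were chosen with earlier results of these data known.

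Agilent Feature Extraction was used by the authors to read the scans (10.7.3.1 in the headers of the deposited files, 10.5.1.1 in the submitters' processing notes). The deposited scanner files hold unnormalized mean and local background intensity per spot and channel, processed intensity with background and dye bias removed, and the log10 ratio of the processed signals. The deposited value table holds log10 ratios, which differed from those of the scanner files, turned to Lats2-/- over Lats2+/+, by at most 0.00500.

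Background was corrected on the mean intensities by normexp (offset 50), which pulls ratios of dim probes toward 0, in limma 3.58.1 under R 4.3.3. Of 45018 spots, 43379 gene spots were used, 860 outlier spots over the arrays were left out and 0 were saturated. Ratios were loess normalized within arrays, and repeat spots and then the arrays of a litter were averaged. Signals per extract were taken after Aquantile. The 3 litter ratios were tested against 0 with limma (lmFit and eBayes, two-sided) with Benjamini-Hochberg adjustment over 22642 kept probes at 0.05. In simulated data of 22642 probes, with 200 of them changed by 4 on the log2 scale, 160 of the changed were called, with 5 false calls among the unchanged. The extracts came from independent litters, and the study describes them as independent cell lines. The number of litters, and within a litter of arrays, limits the precision.

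Where 1 extract of a litter cleared background for a probe and its littermate did so on no array, the brighter mean was set against the higher of the dim signal and the lowest signal of probes well above background, written as at least N-fold. Genes were named through RefSeq: 24367 probes by accession, 6307 by symbol, 2425 by synonym and 8075 as in the files. Named genes were all members, in each list those with an unadjusted p under 0.05 and those with the highest and lowest mean, the 5 most like Cspg4, and Lats2. Other marker genes and the 2-fold litters were chosen after their values were seen. Probe positions are those of the files (mm8). Alternatives were other background corrections, scalings, filters, tests and blocks, and each litter left out.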

Additional observations from a re-analysis of the deposited data

How the results depend on the processing

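The mean of Cspg4 was below 0 under all 15 alternatives, from -4.13 with the processed signals to -2.72 as the mean over its 3 probes, and from -4.04 to -3.02 with a litter left out. By construction, the filters, the methods' t-test and the fit with no replicate block could not move it from -3.39. A random block for slide gave -3.53, with -3.12 over litters 112 and 116 (slide 1) and -3.94 in litter 121 (slide 2). For Sdc1 to Sdc4, Gpc1, Gpc3, Gpc4 and Gpc6, 6 of 119 values under alternatives turned sign, each with a litter left out: Sdc1 to -0.12 (without 112), Sdc3 to 0.17 (without 116), Sdc4 to -0.36, Gpc1 to -0.46 and Gpc3 to -0.14 (without 121), and Gpc1 to 0.00 just under 0 (without 112). The 119 include many values that could not turn sign. Filters, the methods' t-test and the fit with no replicate block repeat the main mean, as does the mean over all kept probes for genes with a single one. Gpc3 had no kept probe under the strict filter. The pairing of genotypes is within each litter and array, and was taken from the clone names. Of all kept probes, 0 passed the adjusted threshold, with 1549 at an unadjusted p under 0.05 in limma, 1348 by the methods' t-test, 554 with no replicate block, 2852 with the dye term and 4030 with the slide block. Leaving out a litter gave 0 to 0, slide as a random block gave 717 (371 higher, 346 lower) and a dye term with litter as a random block 203 (135 and 68). These fits count arrays of the same extracts as observations of their own, and in them Col18a1 (-1.64 and -1.50) and, with the slide block, App (0.91) passed the adjusted threshold. Unadjusted calls of list genes were lost too: p was under 0.05 in 5 of 15 settings for Dse (up to 0.191), 8 for Gipc1 (0.279), 9 for Extl3 (0.395), 12 for App (0.276) and Tiam1 (0.136), 13 for Cd14 (0.301), 14 for Col18a1 (0.0594), and 10 of 14 for Krt19 (0.127), whose mean was 1.10 to 3.26. A 2-fold change or more with an unadjusted p under 0.05 was found for 189 probes (144 higher, 45 lower). This count was 305 (211 and 94) when normexp used an offset of 16, 551 (336 and 215) on processed signals, 545 (335 and 210) on the deposited value table, 71 (56 and 15) by the methods' t-test, 112 (81 and 31) with no replicate block, 441 (294 and 147) under the slide block, 399 (280 and 119) with the dye term and 260 to 373 with a litter left out (352 without litter 112, 373 without litter 121). By construction, the smaller offset adds less to each signal and so raises ratios of dim probes. For the others the cause was not tested.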
